A study of Homo sapiens with 6 samples.

Results

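The levels of 45 genes of autophagy and the lysosome were followed after 6 h of dopamine in SK-N-SH, a line of human neuroblastoma cells. They were picked by symbol (key proteins of autophagosome formation, cargo capture and lysosomal digestion). All 45 were found among the 26789 genes of the table, each on a single row. Of these, 43 had a mean of 1 FPKM or more over the 6 libraries and were tested among 11791 genes, and MITF and CTSZ lay below that level. FPKM counts the sequenced fragments of a gene per kilobase of its length and relative to library size. Both groups were SK-N-SH cells labelled as wild type, grown for 24 h in standard medium and then kept for 6 h in medium alone (control, n = 3) or with dopamine (n = 3). The dose is labelled 40 M, where a prefix appears to be missing, and it is not used. The series design text speaks of SH-SY5Y, a subline of SK-N-SH, but each of the 6 samples carries the label SK-N-SH. Separate cultures are not stated, so p-values reflect only how far these samples spread, which may be technical.

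Autophagy is the process by which a cell wraps part of its own content in a double membrane, the autophagosome, and delivers it to the lysosome for digestion. The ULK1 kinase complex and the lipid kinase complex of PIK3C3 and BECN1 start the membrane, and the ATG conjugation enzymes attach small ubiquitin-like proteins of the ATG8 family to it. Receptors then bring in the cargo, and acid hydrolases in the lysosome break it down. The transcription factors TFEB, TFE3 and MITF switch on many lysosomal and autophagy genes through a short E-box sequence in their promoters. In neurons and neuron-like cells this pathway clears protein aggregates and damaged organelles.

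The libraries held the markers of their label. Of 12 adrenergic neuroblastoma markers 11 had a mean of 1 FPKM or more (summed level 349 to 398 FPKM in control and 348 to 398 FPKM in dopamine libraries), as had all 6 mesenchymal markers (1090 to 1227 and 1086 to 1129 FPKM). The defining markers of other cells were near 0: the 2 immune markers found, of 5, summed to at most 0.0933 FPKM and the 2 endothelial markers found, of 3, to at most 0.0616 FPKM in any library. Of 4 epithelial markers only CLDN4 reached 1 FPKM, and the list summed to 1.90 to 2.15 FPKM in control and 1.47 to 1.84 FPKM in dopamine libraries. As a check of the labels, HMOX1, the gene of the stress enzyme heme oxygenase 1, stood at 28.9 to 38.2 FPKM in control and 392 to 470.4 FPKM in dopamine libraries, and it rose 12.9-fold (limma adjusted p = 6.06e-07). Depth, recovered from the step size of low values, ran from 19393000 to 24234000 fragments, so that 1 FPKM over 1 kb equals 19.4 to 24.2 fragments. Libraries also differed in the slope of expression on GC content, and control replicate 3 and dopamine replicate 3 lay at the ends of that trend. These values are given below beside the results they touch.

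No autophagy or lysosome gene passed the threshold of 0.05 after adjustment (limma, two-sided, with a trended prior variance and Benjamini-Hochberg over 11791 genes), which 0.102% of all tested genes did. The highest fold changes on the log2(FPKM + 0.5) scale were those of TAX1BP1 (1.54-fold), GABARAPL1 (1.48-fold), NBR1 (1.38-fold), ATG12 (1.37-fold) and ATG5 (1.36-fold), while GLA (1.30-fold) and GABARAPL1 had the lowest p. Before adjustment, at p under 0.05, 13 of the 43 were higher with dopamine, against 24.4% of all tested genes, and 1 was lower, against 8.05%. In 10 the 3 dopamine values all lay above the 3 control values (24.4% of all genes) and in 2 they all lay below (14.1% of all genes), so these shares were near or under the background. The median log2 fold change was -0.005 over the 43 genes and 0.08 over all tested genes. In bulk RNA, a change in the number of cells that express a gene and a change in RNA per cell cannot be told apart.

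The count of adjusted calls depended on the setting. When control replicate 1 was left out, 7 genes passed (18.5% of all genes), and 13 passed with sample quality weights (22.9% of all genes). These weights were lowest for dopamine replicate 3 (0.279), control replicate 3 (0.503) and control replicate 1 (0.579). All 7 genes called without control replicate 1 were also called with the weights: BECN1, WIPI1, ATG12, GABARAPL1, NBR1, TAX1BP1 and ATP6V1A. Both settings share libraries, but the weighted fit leaned on control replicate 2 (2.999) and dopamine replicates 2 (2.297) and 1 (1.788). Without control replicate 1, the replicates numbered 3 kept full weight. The same overlap over all tested genes was not counted. The unadjusted count of 13 higher genes became 8 when control replicate 2 was left out (14.9% of all genes) and 6 when control replicate 3 was (12% of all genes). It was 8 in the absence of dopamine replicate 3 (11.3% of all genes) and 5 in the absence of both replicates numbered 3 (8.65% of all genes). After median-of-ratios scaling, which moved the median of all genes by -0.10 on the log2 scale, 8 were higher (14.5% of all genes) and 3 lower (16.4%) at that unadjusted threshold. Quantile normalization gave 7 higher (14.5%) and 3 lower (14.7%).

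**Figure D1:**
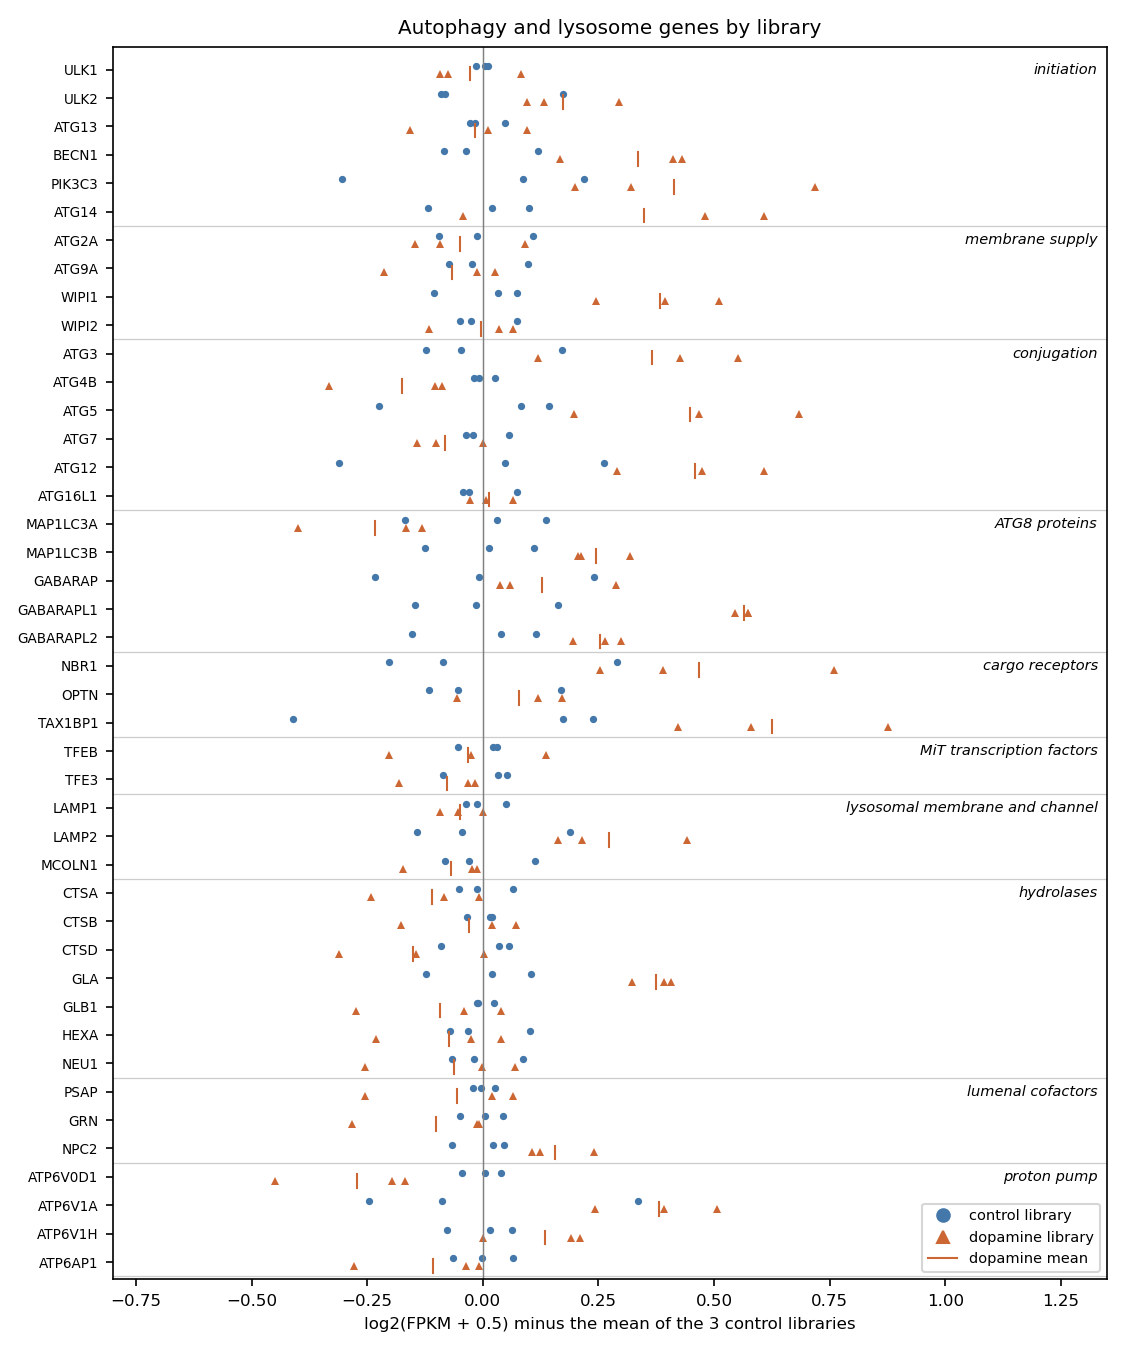
Level of each of the 43 tested genes in each library as log2(FPKM + 0.5) minus the mean of the 3 control libraries, ordered by role (circles, control; triangles, dopamine; vertical bar, dopamine mean). The dopamine means run from -0.27 for ATP6V0D1 to 0.63 for TAX1BP1, and in 10 genes all dopamine points lie to the right of all control points.

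Among the 6 genes that start the autophagosome, BECN1 had the clearest separation. BECN1 (ENSG00000126581.8, hg19 chromosome 17, 40962152 to 40985367) encodes Beclin 1, the regulatory subunit of the lipid kinase complex. It stood at 9.34, 8.33 and 8.04 FPKM in the control libraries (replicates 1, 2 and 3, in this order here and below) and at 11.5, 9.66 and 11.7 FPKM with dopamine. Every dopamine library was above every control library, although the lowest dopamine value was close to the highest control value. The log2 fold change was 0.34 (SE 0.10, limma adjusted p = 0.111). CNTD1 and PSME3 overlap 44.9% of the span of BECN1 in the table, so reads in the shared part are uncertain.

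The other initiation genes had overlapping groups. PIK3C3, the catalytic lipid kinase, went from a mean of 1.51 ± 0.362 to 2.18 ± 0.525 FPKM (SD, n = 3 per group here and below), and ATG14, which brings that kinase to the site of the new membrane, from 1.85 ± 0.179 to 2.54 ± 0.679 FPKM. In both, the dopamine spread was wider than the control spread. The kinase genes ULK1 (5.76 ± 0.0590 and 5.64 ± 0.422 FPKM) and ULK2 (1.83 ± 0.249 and 2.12 ± 0.196 FPKM) and their partner ATG13 (16.02 ± 0.470 and 15.9 ± 1.45 FPKM) stood close together in the 2 groups.

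Of the 4 genes that supply membrane and lipid, WIPI1 stood apart from the rest in the values as deposited. WIPI1 (ENSG00000070540.8, chromosome 17, 66417089 to 66453654) encodes a protein that binds the lipid made by PIK3C3. Control libraries held 9.95, 8.73 and 9.65 FPKM and dopamine libraries 13.7, 11.3 and 12.6 FPKM. The groups did not overlap, and the gap between them was larger than the spread among controls. The log2 fold change was 0.38 (SE 0.10, adjusted p = 0.11), and the unadjusted p of 0.00352 stayed under 0.05 in all 19 alternative settings. Its relative WIPI2 had the same level in both groups (14.8 ± 0.706 and 14.8 ± 1.02 FPKM). ATG2A, a lipid transfer protein gene, stood at 5.03 ± 0.394 and 4.85 ± 0.473 FPKM, and ATG9A, which encodes the membrane scramblase of autophagy, at 8.87 ± 0.573 and 8.46 ± 0.779 FPKM. After the correction for GC content and transcript length described below, all 4 were higher with dopamine. The log2 fold changes were then 0.39 for WIPI1, 0.22 for ATG2A, 0.18 for ATG9A and 0.14 for WIPI2. The median of all tested genes was 0.10.

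The conjugation genes went in both directions. ATG5, ATG12 and ATG16L1 form the ligase that attaches ATG8 proteins to membrane, ATG7 and ATG3 are its upstream enzymes, and ATG4B is the protease that prepares and releases ATG8 proteins. ATG5 stood at 2.85, 2.71 and 2.10 FPKM in control and 2.98, 3.69 and 4.38 FPKM in dopamine libraries, with no overlap (log2 fold change 0.45, SE 0.16, adjusted p = 0.117). ATG12 stood at 2.83, 2.37 and 1.74 FPKM in control and 2.90, 3.36 and 3.74 FPKM in dopamine libraries (log2 fold change 0.46, SE 0.16, adjusted p = 0.118). In both genes control replicate 3 was the lowest library and dopamine replicate 3 the highest.

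ATG3 stood at 4.83, 4.08 and 3.85 FPKM in control and 4.64, 5.86 and 6.44 FPKM in dopamine libraries, so the groups overlapped (log2 fold change 0.37, SE 0.14, adjusted p = 0.124). ATG4B was lower in every dopamine library, at 8.96, 8.86 and 7.49 FPKM against 9.43, 9.51 and 9.76 FPKM in control libraries. Its log2 fold change was -0.18 (SE 0.10, adjusted p = 0.222), and 0.08 once GC content and transcript length were corrected for. ATG7 (4.37 ± 0.171 and 4.11 ± 0.240 FPKM) and ATG16L1 (7.99 ± 0.380 and 8.07 ± 0.282 FPKM) had overlapping groups.

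The ATG8 family holds the small proteins that are anchored to the autophagosome and bind cargo receptors. By level per length, MAP1LC3B, GABARAPL2 and MAP1LC3A were the abundant members, while GABARAPL1 and GABARAP were listed near 1 FPKM. GABARAP is usually abundant, and the counting of reads that map to several places is not stated, so its level, and sums and shares that include it, are uncertain. GABARAPL1 (ENSG00000139112.6, chromosome 12, 10365057 to 10375727) was listed at 1.27, 0.9296 and 1.07 FPKM in control and at 1.86, 1.86 and 1.81 FPKM in dopamine libraries. The 3 dopamine values were nearly equal and all lay above the control values. The log2 fold change was 0.56 (SE 0.14, adjusted p = 0.11), on a log2(FPKM + 0.5) scale that understates the change of so low a gene.

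MAP1LC3B (ENSG00000140941.8, chromosome 16, 87417601 to 87438385), the gene of LC3B, the usual marker protein of autophagosomes, stood at 18.2, 15.4 and 17.0 FPKM in control and 19.5, 19.6 and 21.1 FPKM in dopamine libraries. The groups did not overlap (log2 fold change 0.25, SE 0.09, adjusted p = 0.117). FBXO31 overlaps 39.2% of its span, and the near-identical gene MAP1LC3B2, listed at 0.159 to 0.9301 FPKM, could share reads with it. GABARAPL2 stood at 14.5, 13.8 and 12 FPKM in control and 16.6, 16.2 and 15.4 FPKM in dopamine libraries, again with no overlap (log2 fold change 0.25, SE 0.09, adjusted p = 0.12).

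MAP1LC3A, which encodes the related LC3A, had a lower mean with dopamine, 12.03 ± 1.23 against 14.2 ± 1.55 FPKM, with overlapping groups. Its log2 fold change of -0.23 turned to 0.04 after the GC and length correction, while with quality weights it was called lower (limma adjusted p = 0.0425). GABARAP itself stood at 0.953 ± 0.239 and 1.08 ± 0.156 FPKM. The 5 genes summed to 46.6 ± 3.06 FPKM in control and 51.0 ± 0.828 FPKM in dopamine libraries. The share of MAP1LC3A in that sum was 30.6 ± 2.42% in control and 23.6 ± 2.07% in dopamine libraries, and that of GABARAPL1 2.34 ± 0.314% and 3.60 ± 0.0244%. The share of GABARAPL2 was 28.8 ± 0.978% and 31.5 ± 0.671%. The sum and these 3 shares had groups that did not overlap (two-sided exact permutation p = 0.1 for each, the smallest that 3 against 3 allows). The share of MAP1LC3B overlapped between the groups, at 36.2 ± 3.25% and 39.3 ± 2.39% (exact permutation test, p = 0.4). The sum and shares use values not corrected for GC content. With the GC and length correction the log2 fold change of GABARAPL2 went from 0.253 to 0.045, and that of GABARAPL1 from 0.564 to 0.511.

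**Figure D2:**
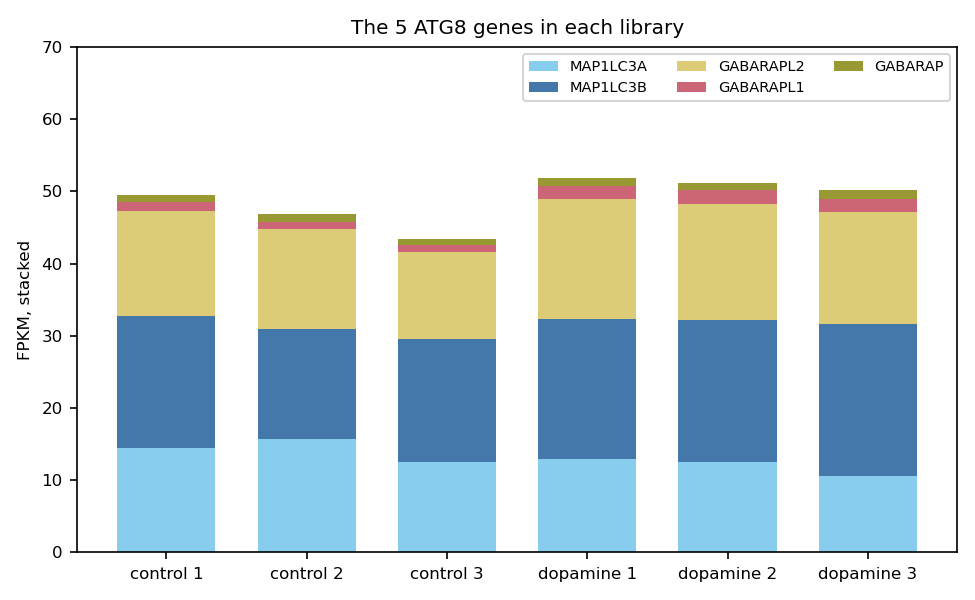
Stacked levels in FPKM of the 5 ATG8 genes in each of the 6 libraries. The total runs from 43.3 to 49.4 FPKM in control and from 50.2 to 51.8 FPKM in dopamine libraries, and the MAP1LC3A part is 12.6 to 15.6 FPKM in control and 10.6 to 12.9 FPKM in dopamine libraries.

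Cargo receptors tie ubiquitin-marked cargo to ATG8 proteins. TAX1BP1 (ENSG00000106052.9, chromosome 7, 27778950 to 27884183) had the highest fold change of the 43 genes on the log2(FPKM + 0.5) scale. With a pseudocount of 0.1 GABARAPL1 stood higher (log2 fold change 0.72 against 0.66), as it did with quality weights (0.66 against 0.42). TAX1BP1 stood at 7.07, 6.73 and 4.33 FPKM in control and 8.10, 9.09 and 11.3 FPKM in dopamine libraries. All dopamine libraries were above all control libraries, and the replicates numbered 3 were the lowest and the highest. The log2 fold change was 0.63 (SE 0.18, adjusted p = 0.11), and 0.30 without both replicates numbered 3. JAZF1 and another listed gene overlap 14.3% of its span.

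NBR1, another receptor of ubiquitin-marked cargo, stood at 6.28, 4.72 and 4.32 FPKM in control and 6.76, 6.11 and 8.89 FPKM in dopamine libraries. The highest control library exceeded the lowest dopamine library, so the groups overlapped (log2 fold change 0.47, SE 0.16, adjusted p = 0.117). OPTN, the gene of optineurin, which acts in the removal of damaged mitochondria, stood at 6.07 ± 0.700 and 6.43 ± 0.562 FPKM with overlapping groups.

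**Figure D3:**
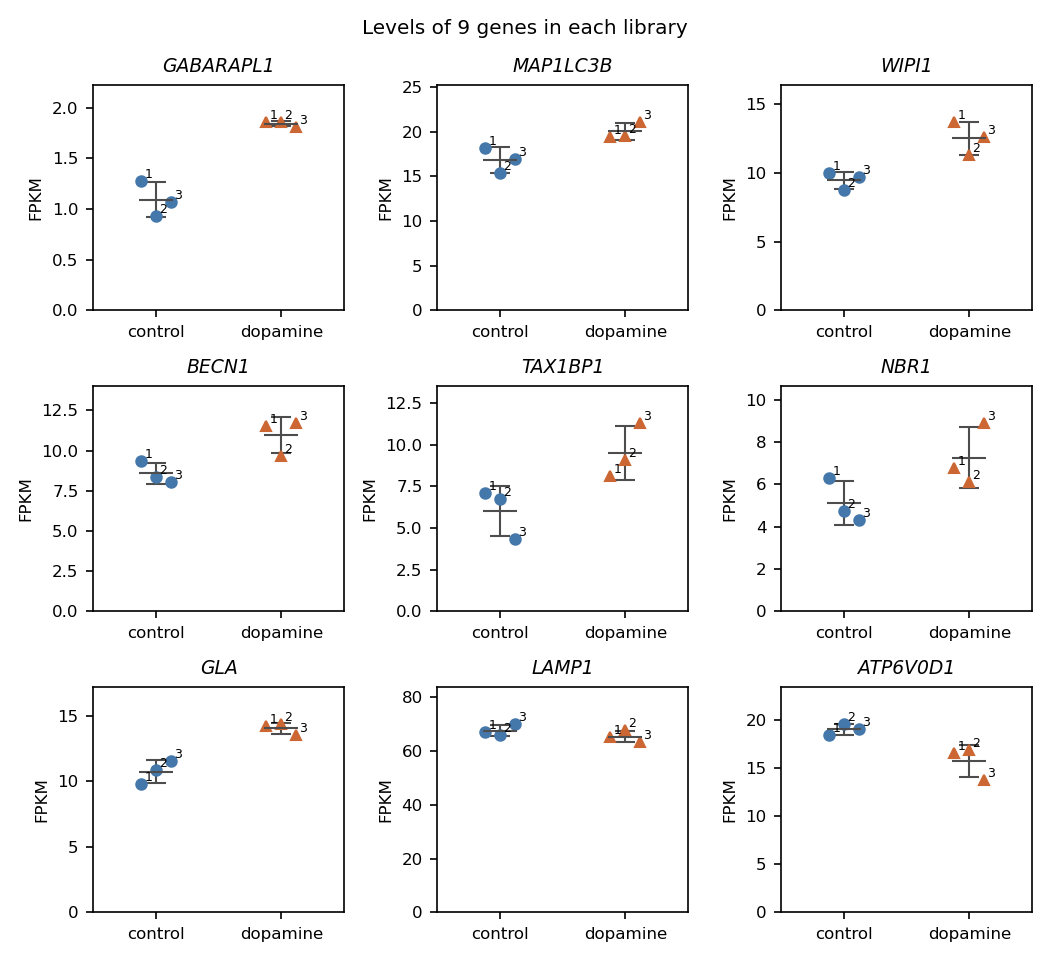
Level in FPKM of 9 genes in each library (points, numbered by replicate, with mean and SD of the 3 libraries of a group). GABARAPL1, MAP1LC3B, WIPI1, BECN1, TAX1BP1 and GLA have no overlap between groups, NBR1 and LAMP1 overlap, and ATP6V0D1 is lower in every dopamine library.

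Of the transcription factors of the pathway, TFE3 and TFEB were tested and had overlapping groups. TFE3 was the abundant factor, at 35.6, 38.7 and 39.2 FPKM in control and 37.0, 37.3 and 33.3 FPKM in dopamine libraries. TFEB was about an order of magnitude lower, at 2.91 ± 0.1101 and 2.85 ± 0.393 FPKM. MITF, below the level for testing, was listed at 0.378, 0.194 and 0.161 FPKM in control and 0.347, 0.457 and 0.557 FPKM in dopamine libraries, with overlap. With no filter on low values it was among 14 of the 45 genes higher at p under 0.05 before adjustment (11.5% of all genes). Its values lay near or below the 0.5 FPKM added before taking logs. These factors are known to be controlled mainly by their movement into the nucleus, which RNA levels do not show.

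Promoter sequences are shown because these factors bind the E-box core CACGTG, often within the longer form TCACGTGA. RefSeq windows (GRCh38.p14, 250 bases before to 50 bases after the start) matched 38 of the 45 genes. On either strand, 8 of the 38 windows (21.1%) held CACGTG, against 10.3% of 7998 tested genes with a window. The exact binomial confidence interval of that 21.1% was 9.55 to 37.3%, which includes 10.3%. TCACGTGA, which contains that core, was in 5 windows (13.2%, interval 4.41 to 28.1%, against 2.14%). TGATGCAA, a form of the site bound by ATF4, was in none (0.425% of the tested genes). The 45 genes were picked for known parts in this pathway, so these shares are a description and were not tested. The windows below hold each E-box that lies before the start, with up to 20 bases on each side, read 5′ to 3′ on the strand of the gene, with E-boxes in capitals.
MCOLN1, chr19:7522563-7522623, plus strand: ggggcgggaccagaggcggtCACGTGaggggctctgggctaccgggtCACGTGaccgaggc
CTSA, chr20:45891273-45891334, plus strand: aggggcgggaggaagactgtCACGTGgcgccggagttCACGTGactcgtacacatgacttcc
CTSD, chr11:1763949-1763994, minus strand: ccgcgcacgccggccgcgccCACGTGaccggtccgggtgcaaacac
NEU1, chr6:31862922-31862967, minus strand: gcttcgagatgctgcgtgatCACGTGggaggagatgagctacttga
LAMP1, distal, chr13:113297027-113297122, plus strand: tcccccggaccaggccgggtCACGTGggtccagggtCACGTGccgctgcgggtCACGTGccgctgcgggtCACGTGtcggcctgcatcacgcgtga
LAMP1, proximal, chr13:113297191-113297236, plus strand: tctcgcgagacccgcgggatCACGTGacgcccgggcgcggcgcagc
ATP6V0D1, chr16:67481191-67481236, minus strand: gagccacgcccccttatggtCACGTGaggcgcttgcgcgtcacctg
ATG14, chr14:55411831-55411871, minus strand: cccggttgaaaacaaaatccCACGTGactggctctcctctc
ATG3, chr3:112561963-112562000, minus strand: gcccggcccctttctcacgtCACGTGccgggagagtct

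Of the 13 genes that were higher at an unadjusted p under 0.05, 11 had a window, and 1 of these, ATG3, held an E-box, as did 7 of the 25 other tested genes with a window. After the GC and length correction described below, 3 of 14 higher genes with a window (MCOLN1, CTSA and CTSD) and 5 of 22 others held one, and neither split was tested. For comparison, the 100 bases before the start of 3 genes whose groups did not overlap are shown next. They hold no CACGTG.
GABARAPL1, chr12:10212777-10212876, plus strand: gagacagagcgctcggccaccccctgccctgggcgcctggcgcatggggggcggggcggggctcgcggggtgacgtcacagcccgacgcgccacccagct
WIPI1, chr17:68457497-68457596, minus strand: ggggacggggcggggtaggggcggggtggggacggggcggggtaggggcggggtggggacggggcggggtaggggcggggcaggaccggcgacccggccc
GLA, chrX:101407926-101408025, minus strand: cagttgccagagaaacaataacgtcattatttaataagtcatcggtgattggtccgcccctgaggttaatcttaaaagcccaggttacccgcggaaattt
A match is a description of the letters and not evidence of binding.

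Of the 3 lysosomal membrane genes LAMP1 was the most abundant. LAMP1, a main glycoprotein of the lysosomal membrane, whose promoter held the most E-boxes, stood at 67.0, 65.9 and 70.1 FPKM in control and 65.1, 67.7 and 63.4 FPKM in dopamine libraries. LAMP2, which acts in the fusion of autophagosomes with lysosomes, stood at 12.7, 10.7 and 10.0 FPKM in control and 12.5, 13.0 and 15.2 FPKM in dopamine libraries. Its groups overlapped, and the log2 fold change of 0.27 (SE 0.11, adjusted p = 0.142) was -0.05 after the GC and length correction. MCOLN1, the lysosomal calcium channel gene, stood at 7.22 ± 0.548 and 6.86 ± 0.452 FPKM.

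Among the 8 hydrolase genes GLA was the exception. GLA (ENSG00000102393.5, chromosome X, 100652791 to 100662913) encodes alpha-galactosidase A, which removes galactose from glycolipids and is deficient in Fabry disease. It stood at 9.78, 10.8 and 11.5 FPKM in control and 14.2, 14.4 and 13.5 FPKM in dopamine libraries. The groups were well separated, with a gap wider than the range of either group. The log2 fold change was 0.37 (SE 0.09, adjusted p = 0.11), the unadjusted p of 0.00208 was the lowest of the 43 genes, and it stayed under 0.05 in all 19 alternative settings.

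The proteases CTSD (101 ± 5.51 and 90.7 ± 9.87 FPKM), CTSB (80.4 ± 1.66 and 79.0 ± 7.06 FPKM) and CTSA (45.03 ± 1.89 and 41.7 ± 3.43 FPKM) were abundant, with overlapping groups. CTSA protects other lysosomal enzymes as well as acting as a protease. The glycosidase genes GLB1 (31.6 ± 0.445 and 29.7 ± 3.31 FPKM), NEU1 (13.8 ± 0.786 and 13.2 ± 1.58 FPKM) and HEXA (6.41 ± 0.439 and 6.08 ± 0.629 FPKM) also had overlapping groups. Other listed genes overlap 99.6% of the span of HEXA. CTSZ, a carboxypeptidase gene, was listed at or near 0 in every library, from 0 to 0.130 FPKM.

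The lumenal cofactors held the most abundant gene of the set. PSAP, the precursor of the saposins that help hydrolases reach their lipids, stood at 240.4, 248 and 243 FPKM in control and 247, 255 and 204 FPKM in dopamine libraries. Dopamine replicate 3 alone lay below the others. GRN, the progranulin gene, showed the same arrangement, at 91.7, 97.7 and 95.2 FPKM in control and 94.2, 94.0 and 77.8 FPKM in dopamine libraries. NPC2, the cholesterol carrier of the lysosomal lumen, stood at 36.3, 37.0 and 34.1 FPKM in control and 39.0, 42.4 and 38.5 FPKM in dopamine libraries, with no overlap (log2 fold change 0.16, SE 0.08, adjusted p = 0.175).

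The proton pump acidifies the lysosome, and in the values as deposited its subunit genes went in both directions. ATP6V0D1 (ENSG00000159720.7, chromosome 16, 67471917 to 67515140), a subunit that links the 2 parts of the pump, was lower in every dopamine library, at 16.5, 16.8 and 13.8 FPKM against 18.4, 19.5 and 19.0 FPKM in control libraries. It was the only gene lower at an unadjusted p under 0.05 (log2 fold change -0.27, SE 0.09, adjusted p = 0.116). ATP6V1A, the catalytic subunit gene, stood at 6.503, 4.71 and 4.18 FPKM in control and 6.07, 6.78 and 7.38 FPKM in dopamine libraries, with overlap (log2 fold change 0.38, SE 0.15, adjusted p = 0.134). ATP6V1H (5.95 ± 0.316 and 6.59 ± 0.553 FPKM) and the accessory subunit gene ATP6AP1 (39.2 ± 1.80 and 36.5 ± 3.70 FPKM) had overlapping groups. After the GC and length correction the log2 fold changes of ATP6V0D1 and ATP6V1A were -0.05 and 0.11. Of these 4 pump genes, 0 were then under an unadjusted p of 0.05 in either direction.

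The direction of the difference was related to the GC content of the transcript. All 11 genes under 45% GC had a higher mean with dopamine (median log2 fold change 0.37), as had 10 of 20 genes between 45 and 55% GC (median 0.005) and 0 of 12 genes at 55% GC or more (median -0.09). Over all tested genes in these ranges, 94.9%, 65.3% and 16.1% were higher, with medians of 0.36, 0.07 and -0.14. Across the 43 genes the correlation of log2 fold change with GC content was r = -0.765, and across all 11579 tested genes with a known GC content r = -0.75. These are descriptions across genes that share the same 6 libraries, and genes are not independent replicates. The slope of expression per 10 points of GC was 0.02, 0.11 and 0.22 log2 units in the control libraries and -0.03, -0.06 and -0.26 in the dopamine libraries (two-sided exact permutation p = 0.1, which 3 against 3 cannot go below).

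Of the 13 genes higher at an unadjusted p under 0.05, 9 were lowest in control replicate 3 and 9 were highest in dopamine replicate 3. Genes picked as higher with dopamine will mostly have a control library lowest and a dopamine library highest. Of all 43 tested genes, dopamine replicate 3 was highest in 15 and lowest in 22. Control replicate 3 was highest in 11 and lowest in 13. The 4 listed RNAs retained in the nucleus, MALAT1 among them, summed to 2.33 to 3.04 FPKM in control and 2.91 to 5.46 FPKM in dopamine libraries. MALAT1 is usually very abundant but averaged 1.42 FPKM here, and the counting rule is not known, so this sum is an uncertain measure of nuclear RNA. The part of GC slope and nuclear RNA in the results was not tested.

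With GC content and transcript length corrected for, 15 of the 43 genes were higher at an unadjusted p under 0.05 (20.3% of all genes) and 0 were lower (2.13% of all genes), and still none passed the adjusted threshold in limma (0.294% of all genes). The correction left all genes with a median log2 fold change of 0.10 and the 43 genes with a median of 0.11. The genes under 0.05 both before and after it numbered 7: GLA, GABARAPL1, WIPI1, TAX1BP1, MAP1LC3B, BECN1 and NBR1. How many of all tested genes were under 0.05 in both fits, or in a single one, was not counted. These 7 therefore have no background share to be read against. Corrected log2 fold changes were 0.38 for GLA (adjusted p = 0.0548), 0.51 for GABARAPL1 (adjusted p = 0.0995), 0.39 for WIPI1 (adjusted p = 0.107) and 0.58 for TAX1BP1 (adjusted p = 0.153), all close to the uncorrected values. MAP1LC3B stood at 0.28, BECN1 at 0.20 and NBR1 at 0.32 on the corrected log2 scale.

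The 7 genes under 0.05 only before the correction were ATG3, ATG5, ATG12, GABARAPL2, LAMP2, ATP6V1A and ATP6V0D1. Their corrected log2 fold changes lay between -0.05 and 0.15. The 8 genes under 0.05 only after it had overlapping groups before it and transcripts of 54.2 to 64.2% GC: ULK1, ATG2A, WIPI2, TFE3, MCOLN1, CTSA, CTSD and GRN. Their corrected log2 fold changes lay between 0.13 and 0.24, little above the 0.10 median of all genes.

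**Figure D4:**
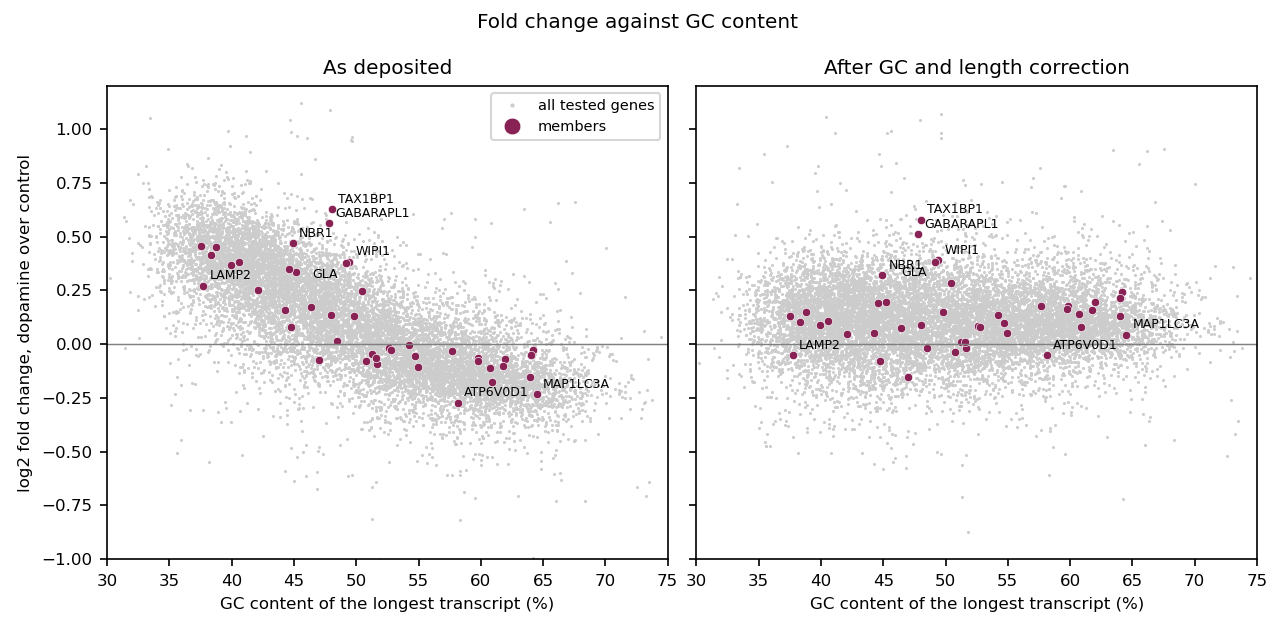
Log2 fold change of dopamine over control against GC content of the longest transcript for all 11579 genes with a known GC content (grey) and the 43 autophagy and lysosome genes (purple), as deposited and after the correction; 9 and 5 grey genes lie outside the axes. TAX1BP1 lies at 0.63 and 0.58, GABARAPL1 at 0.56 and 0.51, while LAMP2 and ATP6V0D1 both lie at -0.05 after the correction.

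Further genes of the pathway, from lists chosen with earlier results of these data known, gave no adjusted call either in the main fit or after the correction. Some were called with quality weights and without control replicate 1, where 22.9% and 18.5% of all genes passed. TMEM41B, VMP1, NCOA4 and CTSL were among them. Of 29 other autophagy genes tested, 0 passed in limma, 14 were higher and 0 lower at p under 0.05 without adjustment, and after the correction 10 of 28 were higher and 0 lower. The shares of all tested genes were 24.4% higher and 8.05% lower, and 20.3% and 2.13% after the correction. TMEM41B (2.92 ± 0.583 and 5.02 ± 0.662 FPKM) and VMP1 (11.7 ± 1.22 and 16.4 ± 1.93 FPKM), lipid scramblases of the endoplasmic reticulum, had the lowest p of the list, with NCOA4, the receptor for ferritin (20.5 ± 3.23 and 30.2 ± 4.40 FPKM; adjusted p = 0.11 for each in limma). TMEM41B kept a log2 fold change of 0.41 after the correction (0.70 before), whereas VMP1 went from 0.47 to 0.16. NCOA4 had no known GC content and was not in the corrected fit. SQSTM1, the gene of the cargo receptor p62, stood at 61.3, 67.0 and 62.3 FPKM in control and 72.3, 78.3 and 62.4 FPKM in dopamine libraries. Its log2 fold change was 0.15 before the correction (SE 0.09, adjusted p = 0.26) and 0.37 after it (SE 0.07, adjusted p = 0.0769).

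Of 44 other lysosomal genes tested 0 passed, and 17 were higher (24.4% of all genes) and 1 lower (8.05%) without adjustment at p under 0.05, and 14 (20.3%) and 0 (2.13%) after the correction. CTSL, a cysteine protease gene, stood at 31.3, 30.0 and 31.0 FPKM in control and 37.4, 42.3 and 45.02 FPKM in dopamine libraries, with no overlap. Its log2 fold change was 0.42 as deposited (SE 0.08, adjusted p = 0.11), and 0.52 when corrected (adjusted p = 0.0769). CTSO, another cysteine protease gene, stood at 1.71 ± 0.355 and 2.95 ± 0.506 FPKM (limma adjusted p = 0.11).

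Of 13 other proton pump genes tested 0 passed, and 7 were higher (24.4% of all genes) and 1 lower (8.05%) without adjustment at p under 0.05, and 3 (20.3%) and 1 (2.13%) after the correction. The 3 with the lowest p encode subunits of the peripheral stalks or the rotor: ATP6V1G1 (41.5 ± 0.437 and 56.4 ± 8.74 FPKM), ATP6V1E1 (31.7 ± 1.68 and 39.5 ± 3.10 FPKM) and ATP6V1D (5.53 ± 1.17 and 8.44 ± 1.04 FPKM). Their log2 fold changes were 0.43, 0.31 and 0.58, and 0.33, 0.26 and 0.46 after the correction.

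The nutrient sensors around mTORC1 and AMPK hold autophagy down or release it. Of 24 tested 0 passed, and 7 were higher (24.4% of all genes) and 5 lower (8.05%) without adjustment at p under 0.05, and 6 (20.3%) and 0 (2.13%) after the correction. The 3 with the lowest p were mTORC1 parts with lower values: AKT1S1 (41.5 ± 2.69 and 34.6 ± 1.61 FPKM), RPTOR (13.99 ± 0.616 and 11.5 ± 0.614 FPKM) and MLST8 (21.8 ± 1.53 and 17.8 ± 1.29 FPKM). Their log2 fold changes of -0.26, -0.27 and -0.28 were -0.01, -0.04 and 0.00 after the correction. FNIP1, a gene of the folliculin complex, stood at 0.975 ± 0.147 and 1.54 ± 0.332 FPKM, and RRAGD, a Rag GTPase gene often driven by TFEB, lay below the level for testing at 0.165 ± 0.0518 and 0.170 ± 0.0129 FPKM.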

How the data were processed

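RNA of 3 control and 3 dopamine samples of SK-N-SH cells was analysed. Per the labels' protocols, ribosomal RNA was removed and stranded total-RNA libraries were made. The authors deposited FPKM values per gene and hg19 positions. The tools DESeq2 1.40.2, HTSeq 0.11.2, STAR 2.7.1a and FastQC 0.11.9 are named, without roles, per the submitters' processing notes. The making of FPKM and the strand setting of counting were not given in the sources used here; overlapping genes are therefore uncertain. Of the 45 genes, 20 overlap another listed gene.

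Values were analysed as log2(FPKM + 0.5), which understates changes of low genes, for genes with a mean of 1 FPKM or more. The main comparison used limma 3.58.1 under R 4.3.3 (trended prior variance, two-sided, Benjamini-Hochberg, threshold 0.05), without a replicate block. Depth was recovered from 2809 pseudogenes of 150 to 1500 bases, taken to have a single exon, where 92.5 to 93.8% of low values were whole fragments within 0.03.

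GC content and length came from the longest GENCODE 29 transcript by gene identifier, and 98.2% of tested genes had both. The correction subtracts, per library, a loess curve (span 0.5) of the deviations from gene means. Where the trend differs between groups, part of a real difference can be lost. Symbols of 3 listed genes were matched by identifier. Fold change, SE and p are given for members with an unadjusted p under 0.05 or without overlap of the groups, other members by their levels, and of each further list the 3 genes with the lowest p and SQSTM1, RRAGD and FNIP1. A gene that this rule names is not reported here. The members and lists were chosen with earlier results of these data known. Alternatives were pseudocounts, filters, scalings, no trend, quality weights, a replicate block, the correction and leaving out each library. Leaving out both replicates numbered 3, and the correction with a block, were added after seeing the data.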

Additional observations from a re-analysis of the deposited data

How the results depend on the processing

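Of 19 alternative settings, 17 were planned. No member passed the adjusted threshold except with sample quality weights (13, 22.9% of all genes) or without control replicate 1 (7, 18.5%). Members higher at an unadjusted p under 0.05 numbered 13 (24.4% of all genes), but 8 with median-of-ratios scaling (14.5%) and 7 with quantile normalization (14.5%). They numbered 5 without both replicates numbered 3 (8.65%), and 6 to 14 leaving out single libraries (11.3 to 30.7%). Members lower numbered 1 (8.05% of all genes), but 3 with median-of-ratios scaling (16.4%), 3 with quantile normalization (14.7%), 2 with quality weights (11.4%) and 2 with the replicate block (6.32%). They numbered 0 after the GC and length correction without the block (2.13%) or with it (2.41%), and 2 without both replicates numbered 3 (4.42%). Leaving out single libraries gave 0 to 2 (4.36 to 7.42%). Without overlap, 10 were higher (24.4% of all genes), but 7 with median-of-ratios scaling (17.6%) and 9 with quantile normalization (16.8%). The higher count was 14 after the correction with or without the block (25.7%) and 15 without both replicates numbered 3 (31.5%). Leaving out single libraries gave 10 to 16 (26.4 to 41.2%). Without overlap, 2 were lower (14.1%), but 3 with median-of-ratios scaling (21%) and 4 after quantile normalization (20.4%). The lower count was 0 after the correction with or without the block (3.35%), and 2 to 8 leaving out single libraries (15.7 to 19%). The median log2 fold change of -0.005 was -0.116 after median-of-ratios scaling, 0.108 after the correction with or without the block, 0.066 without both replicates numbered 3, and -0.025 to 0.049 leaving out single libraries. Fewer libraries make it easier for groups not to overlap; otherwise the cause was not tested. After the correction, with or without the block, the log2 fold change of ATG4B turned to 0.08 and that of LAMP2 to -0.05. The other 14 of the 16 members followed kept their direction in every setting. With the replicate block 0 members passed and 9 were higher at an unadjusted p under 0.05 (15.6% of all genes). Same-numbered libraries did not deviate together (correlations -0.203, 0.282 and -0.367), so the numbers were not treated as pairs. Where 2 libraries remain in a group, limma pools the spread over both groups. At 19393000 to 24234000 fragments a library, 1 FPKM over 1 kb rests on 19.4 to 24.2 fragments, which limits the precision of low and short genes.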
